A study of Homo sapiens with 10 samples.

Results

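Chromosome 19 of the human genome is densely populated with members of one of the largest families of DNA-binding proteins, the zinc finger genes named ZNF plus a number. The set described here was chosen from the deposited count table as the genes on chromosome 19 whose Ensembl identifier pairs with such a symbol. Of 300 such genes, 20 pseudogenes and 28 antisense or divergent transcripts were left out, which gave 252 genes of the 63187 in the table. The symbol ZNF781 stands for a pair of identifiers among them, both at 0 counts. A further 283 ZNF genes chosen by symbol lie on other chromosomes, and 2802 other genes lie on chromosome 19.

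The cells were U2OS, a human osteosarcoma line, in 3 groups of 2 RNA-seq libraries. The groups were unheated cells with a control knockdown reagent, heat-shocked cells with the control reagent, and heat-shocked cells with a reagent against YTHDC1, a nuclear protein that binds messenger RNA carrying the modified base m6A. All 6 libraries therefore came from cells given a knockdown reagent, which the sample titles call sh and the descriptions call si, and no unheated knockdown was among the samples. The labels used here name no temperature or duration for the heating, and 4 samples of methylated RNA immunoprecipitation were not analysed here.

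Most of these genes encode proteins with an array of Cys2-His2 zinc fingers, each of which contacts a few bases of DNA. Many also carry a KRAB domain, which binds the corepressor TRIM28. TRIM28 in turn brings the histone methyltransferase SETDB1 and HP1 proteins to the bound DNA and silences it, and many of the binding sites lie in retroelements. The family grew by repeated tandem duplication, which left clusters of related genes along the chromosome.

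The libraries held between 13252370 and 15500743 counts, and the chromosome 19 ZNF genes took between 0.225% and 0.243% of them. Levels are in CPM, read counts scaled to library size after TMM normalization. Differences are log2 fold changes with their standard error (SE). Each adjusted p comes from the quasi-likelihood test of edgeR with Benjamini-Hochberg adjustment over the 17290 genes tested, with 0.05 as the threshold. YTHDC1 averaged 219 CPM in the unheated control, 263 CPM in the heated control and 119 CPM in the heated knockdown, a log2 change of -1.14 in the knockdown (edgeR adjusted p = 2.66e-15). The heat shock genes HSPA1A and DNAJB1 rose in the heated control by 6.51 and 4.02 on the log2 scale (edgeR). Of 8 mesenchymal and osteogenic markers 7 passed the filter and TWIST1 was at 0 counts. COL1A2 passed through the knockdown, with means of 0.41 and 0.38 CPM in the unheated and heated controls and 2.24 in the heated knockdown. The summed level of the 8 was 5354 to 5503, 5363 to 5471 and 5173 to 5992 CPM in that order. In heat RUNX2 fell, by 0.63 on the log2 scale. In the knockdown COL1A1, COL1A2 and RUNX2 rose, VIM and SPARC fell, and ALPL and FN1 did not pass the test. The summed level of 6 epithelial markers was 54.4 to 57.6 CPM in the unheated control, 71.1 to 79.3 in the heated control and 92.1 to 98.2 in the heated knockdown. The rise of this sum in heat came from CLDN4, with means of 43.2 and 64.5 CPM, while KRT5 changed by -1.17 (edgeR adjusted p = 0.0202) and KRT14 and CDH1 differed by -0.40 and -0.35 without passing the test. In the knockdown EPCAM, CDH1, KRT14 and KRT5 rose, and CLDN4 differed by -0.16 (edgeR adjusted p = 0.0568). The summed level of 7 blood markers was 15.5 to 16.3, 16.7 to 17.8 and 4.43 to 5.36 CPM in the same order, with CD3E and HBB at 0. Nearly all of that sum was LCP1, at means of 15.6, 16.7 and 4.2 CPM, and the other 6 were below 1 CPM, PTPRC at 0.267 CPM in the heated control and 0.489 in the knockdown. That of 3 endothelial markers was 4.18 to 4.6, 3.08 to 3.38 and 5.21 to 5.36 CPM. In the knockdown VWF went from a mean of 1.86 to 5.25 CPM, PECAM1 from 0.781 to 0 and CDH5 from 0.592 to 0.0352, so the members differed in direction, and CDH5 was below the filter. The part of these markers in the results was not tested. Whether replicate libraries are separate cultures is not stated in the labels, so each p-value reflects only how far these libraries differ, and that spread may be technical. In such bulk samples, fewer cells of a type and less RNA per cell cannot be told apart.

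Most chromosome 19 ZNF genes were present at low levels in U2OS cells. Of the 252 genes, 199 passed the filter on low counts and were tested, 53 were not tested, and 23 had 0 counts in all 6 libraries, below a limit of 0.0345 CPM over the 6 libraries together. A mean of at least 10 CPM was reached by 83 genes, and 62 were below 1 CPM. The median level of the tested genes was 8.11 CPM, against 15.4 CPM over all tested genes. Accordingly, their median SE was wider, at 0.151 against 0.117 in the heat comparison and 0.155 against 0.119 in the knockdown.

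The genes at 0 were unevenly spread along the chromosome. When the genes were ordered by position and divided wherever a gap exceeded 1 Mb, they fell into 16 groups. A group of 37 genes between positions 19668153 and 24129968 (GRCh38.p14, as are all positions here) held 17 of the 23 genes at 0, and 13 of its 37 genes were tested. ZNF93, a repressor of a class of LINE-1 elements, lies there at 19900946 to 19935575 and was at 0 in all libraries. Groups nearer the long-arm end were more often measurable: 35 of 39 genes between 51571283 and 53580269, and 56 of 60 between 55476617 and 58489533, were tested.

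Relative to gene length, ZNF146 was the most abundant chromosome 19 ZNF transcript at 36.6 CPM per kilobase. ZNF146 (36214723 to 36238768, plus strand) encodes a protein made almost wholly of zinc fingers, without a KRAB domain. ZNF428 followed with 23.7, ZNF473 with 11.7, ZNF580 with 9.77 and ZNF761 with 8.8 CPM per kilobase. ZNF146 measured 159 and 158 CPM in the unheated control, 166 and 160 in the heated control and 136 and 132 in the heated knockdown. Both knockdown libraries lay below all 4 controls, while the unheated and heated controls lay close together. The difference was 0.04 in heat (edgeR adjusted p = 0.501) and -0.28 ± 0.05 (SE) in the knockdown (edgeR adjusted p = 2.32e-05). ZNF580 passed the edgeR test in neither comparison, with log2 differences of -0.14 in heat (adjusted p = 0.266) and 0.10 in the knockdown (adjusted p = 0.406), although both passed without heated control replicate 2 (0.021 and 0.0416).

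The first comparison asked how heat shock changed these transcripts in control cells. It set the heated control against the unheated control. Heat moved the genes in both directions, with more higher than lower. ZNF473, which takes part in the processing of histone pre-messenger RNA, rose 4.06-fold, and ZNF701, ZNF547, ZNF221, ZNF557, ZNF761, ZNF227 and ZNF585A rose at least 2-fold. ZNF792, ZNF675 and ZNF57 fell by more than 2-fold. The changes of all 199 tested genes ran from -1.80 for ZNF296, which averaged 1.64 CPM, to 2.02 for ZNF473. Of the 199 tested genes 51 were higher (25.6%), where 20.6% of all tested genes were, and 34 were lower (17.1%), where 23.3% of all tested genes were. Called changes of at least 2-fold were found for 10 genes upward and 6 downward, against 5.82% and 3.5% of all tested genes. The median log2 change was 0.07, with quartiles of -0.30 and 0.40, beside a median of -0.03 and quartiles of -0.31 and 0.25 over all tested genes. The median was -0.0027 with library size alone, where 43 genes were higher and 40 lower, and 0.018 without heated control replicate 1. Scaling applies to every gene of a library. The medians over all tested genes in these fits are not reported here, so they cannot be set beside these values. With DESeq2 34 were higher and 16 lower, where DESeq2 called 15.3% and 14.5% of all tested genes.

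**Figure D1:**
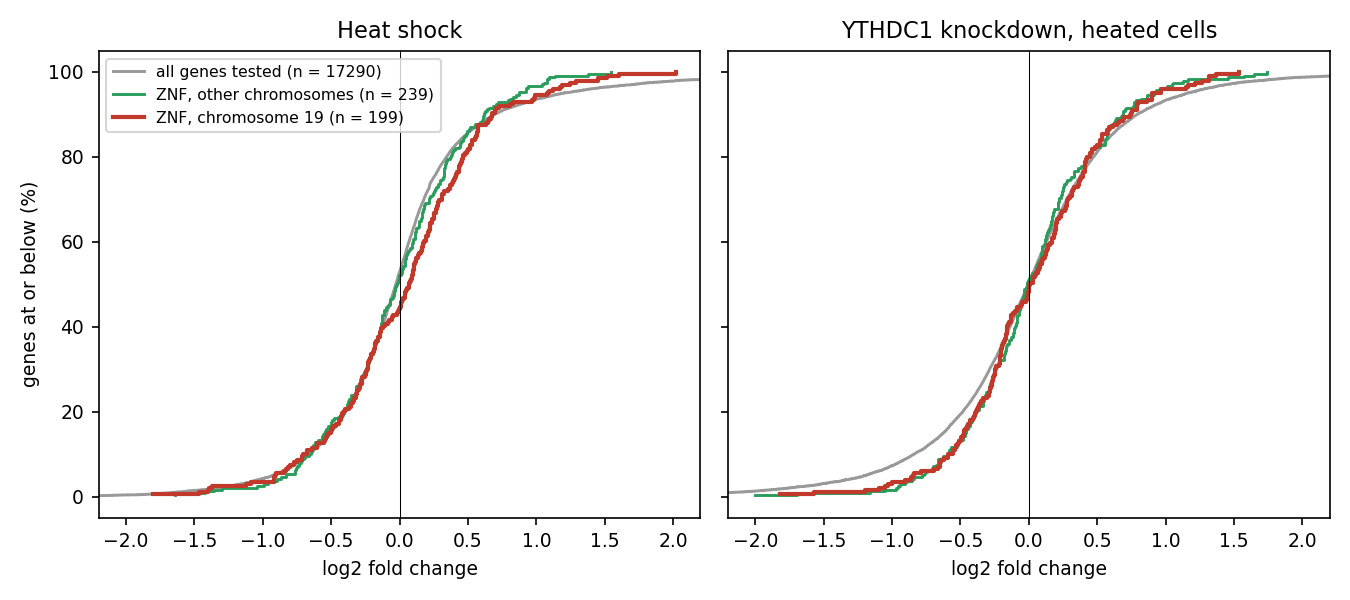
Cumulative share (y axis, percent) of tested genes at or below a given log2 fold change (x axis), for heat (left) and YTHDC1 knockdown (right), with chromosome 19 ZNF genes, ZNF genes on other chromosomes and all tested genes as lines. In heat the chromosome 19 ZNF line lies to the right of the others around and above its middle, with a median of 0.07 against -0.03 for all tested genes, and in the knockdown the medians are 0.01 and -0.00.

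In heat the share of genes called higher was alike in ZNF genes on other chromosomes, while their share lower was larger. Of 239 tested ZNF genes elsewhere 62 were higher (25.9%) and 59 lower (24.7%), with a median of -0.02. The shares of the chromosome 19 ZNF genes were 25.6% and 17.1%. Of 947 other tested chromosome 19 genes 145 were higher (15.3%) and 243 lower (25.7%), with a median of -0.06. The differences between these sets were not tested. Among the chromosome 19 ZNF genes the counts of calls varied with level, in classes of 67, 65 and 67 genes by mean CPM. In the lowest class 4 genes were higher (5.97%) and 11 lower (16.4%). The middle class had 20 (30.8%) and 8 (12.3%), and the highest 27 (40.3%) and 15 (22.4%). Shares over all genes in the same classes were not worked out, and depth limits the calls at low levels. Among the 127 genes of at least 5 CPM, 47 were higher (37.0%) and 22 lower (17.3%), where 24% and 29.2% of all genes at that level were, and the median was 0.14. Across the 199 genes Spearman's rho between the heat change and the mean CPM was 0.24, and that with the deposited gene length was 0.26, against 0.03 and 0.00 across all 17290 genes. Genes are not independent replicates, and depth is shared by all points.

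ZNF473 was the gene with the highest rise. ZNF473 (ENSG00000142528, 50026005 to 50048776, plus strand) encodes a partner of the U7 small nuclear ribonucleoprotein, which cleaves the ends of histone transcripts. It measured 24 and 25.7 CPM in the unheated control, 101 in each heated control library and 110 and 122 in the heated knockdown. The groups did not overlap, and the gap between unheated and heated cells was far wider than the spread within any group. The log2 change was 2.02 ± 0.07 (SE, edgeR adjusted p = 2.06e-17) in heat. In the knockdown it was a further 0.20 ± 0.06 (edgeR adjusted p = 0.0046), a call lost with DESeq2 (adjusted p = 0.0535) and without heated knockdown replicate 2 (edgeR adjusted p = 0.0881).

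ZNF701 and its upstream neighbour ZNF808 both rose with heat. ZNF701 (52570287 to 52600149) begins 1534 bp past the end of ZNF808 on the same strand and overlaps the pseudogene ZNF137P, which rose by 2.44 on the log2 scale. ZNF701 measured 4.35 and 3.6 CPM in the unheated control, 11.2 and 11.6 in the heated control and 12.7 and 10.5 in the heated knockdown. All 4 heated libraries lay above both unheated ones, and the heated control and knockdown overlapped. Its heat change was 1.52 ± 0.17 (SE, edgeR adjusted p = 3.71e-08), and that of ZNF808 was 0.81 (edgeR adjusted p = 0.000414). ZNF808, which represses MER11 retroelements and is needed for pancreas development, measured 5.42 and 6.1 CPM unheated, 9.38 and 10.8 in the heated control and 9.71 and 6.61 in the heated knockdown.

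ZNF761 (53431984 to 53458261) measured 23.5 and 25.9 CPM unheated, 55.2 and 56.2 in the heated control and 74.4 and 61.8 in the heated knockdown, a heat change of 1.18 ± 0.09 (SE, edgeR adjusted p = 9.93e-11). ZNF221 (43951228 to 43981613) rose from 7.63 and 8.22 CPM to 19.5 and 19.2, and measured 16.4 and 15.4 in the heated knockdown. ZNF557 (7069703 to 7087968) rose from 8.26 and 8.67 CPM to 20.8 and 19.4, with 16.7 and 14.7 in the heated knockdown. All 3 genes separated heated from unheated libraries without overlap. The edgeR adjusted p-values in heat of ZNF221 and ZNF557 were 2.83e-09 and 5.87e-09. ZNF227 (44207547 to 44237268) measured 15.2 and 11.6 CPM unheated, 30.1 and 28.2 in the heated control and 36.1 and 35.6 in the heated knockdown, while its upstream neighbour ZNF226, 8057 bp away, changed by -0.43 in heat. The neighbours of a heat-raised ZNF gene thus did not all rise. ZNF547 changed by 1.45 ± 0.25, ZNF585A by 1.09, ZNF383 by 0.97 and ZNF83 by 0.83 ± 0.13 on the log2 scale, all past the edgeR threshold. ZNF547 overlaps TRAPPC2B, which changed by -0.68, and reads from overlapping genes cannot be told apart because the strand setting is not stated.

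**Figure D2:**
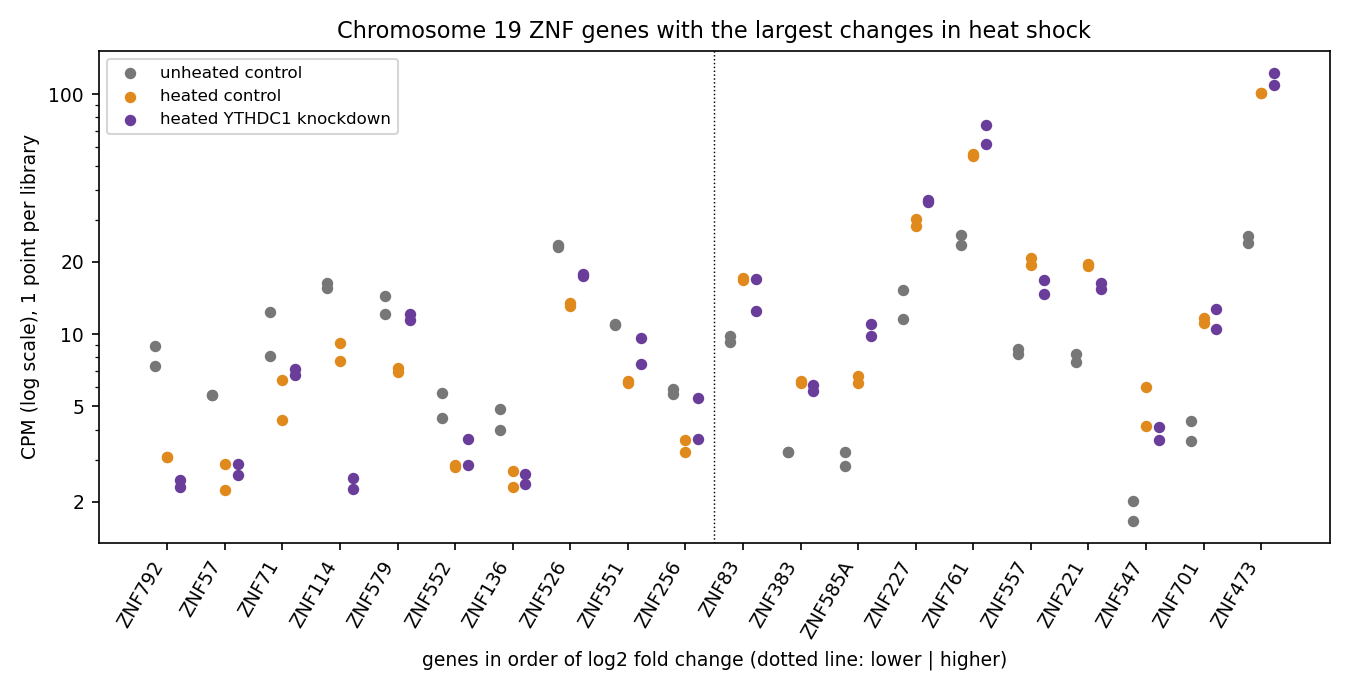
Level of each named chromosome 19 ZNF gene in heat (CPM, log axis), with 1 point for each of the 6 libraries and the groups by colour. ZNF473 lies at 24 and 25.7 CPM unheated and at 101 in both heated control libraries, and ZNF792 shows the opposite order.

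Among the genes that fell, ZNF792 (34956354 to 34964229, minus strand) measured 8.89 and 7.39 CPM unheated, 3.08 in each heated control library and 2.46 and 2.3 in the heated knockdown. Unheated and heated libraries did not overlap. The change was -1.40 ± 0.19 (SE, edgeR adjusted p = 1.23e-06). ZNF57 fell by 1.12 and ZNF71 fell by 0.92 on the log2 scale (edgeR). ZNF675, an inhibitor of signalling through TRAF6, went from 2.71 and 3.28 CPM to 1.08 and 1.22, a change of -1.37 ± 0.32 (edgeR adjusted p = 0.000699). ZNF552 changed by -0.84, a call lost without unheated control replicate 2 (edgeR adjusted p = 0.0566). ZNF136 changed by -0.83, a call lost with DESeq2 (adjusted p = 0.0762) and without unheated control replicate 1 (edgeR adjusted p = 0.0713). ZNF256 changed by -0.75, a call lost with DESeq2 (adjusted p = 0.0603).

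A few genes lowered by heat were higher again in the heated knockdown. ZNF579 (55576774 to 55580848) measured 14.4 and 12.1 CPM unheated, 6.92 and 7.24 in the heated control and 11.5 and 12.2 in the heated knockdown. The heated control lay below both other groups. The change was -0.90 in heat (edgeR adjusted p = 8.89e-06) and 0.74 in the knockdown (edgeR adjusted p = 0.000109), and heated knockdown against unheated control differed by -0.16 (edgeR adjusted p = 0.265). ZNF526 measured 23.1 and 23.6, then 13.5 and 13.1, then 17.8 and 17.5 CPM in the same order, with changes of -0.81 and 0.41 that both passed the edgeR test. ZNF551 changed by -0.80 in heat and 0.45 in the knockdown, the latter lost with DESeq2 (adjusted p = 0.121) and, in edgeR, without heated control replicate 1 (adjusted p = 0.0585), heated control replicate 2 (0.0872) or heated knockdown replicate 2 (0.275). Both comparisons use the heated control libraries, so opposite signs in them are not independent.

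The balance of heat calls is given first for 3 of the 16 position groups, without a test of the difference between them. The edgeR counts are read against the 20.6% higher and 23.3% lower among all tested genes. Between 36182060 and 37779586, 9 of 25 tested genes were higher and 1 lower. Between 51571283 and 53580269, 14 of 35 were higher and 2 lower. The most distal group, between 55476617 and 58489533, had 10 higher (17.9%) and 16 lower (28.6%) of 56, near the shares over all tested genes, with a median of -0.14. DESeq2 called 9 higher and 1 lower in the second of these groups and 5 higher and 6 lower in the third. Over all tested genes DESeq2 called 15.3% higher and 14.5% lower. In the third the number lower was 8 without unheated control replicate 1, 9 without unheated control replicate 2 and 10 without heated control replicate 1, and in the last case the number higher was 6. In other position groups, 8 of 21 tested genes were higher and 4 lower between 43530835 and 45076478. Between 11483429 and 12633834, 1 of 18 was higher and 3 lower. Between 7069703 and 9786160, 3 of 13 were higher and 1 lower, and between 19668153 and 24129968, 0 of 13 were higher and 1 lower. Heat changes of neighbouring tested ZNF genes within 100 kb were only weakly alike. Spearman's rho was 0.08 over 156 pairs, against 0.01 over 773 pairs of other chromosome 19 genes.

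**Figure D3:**
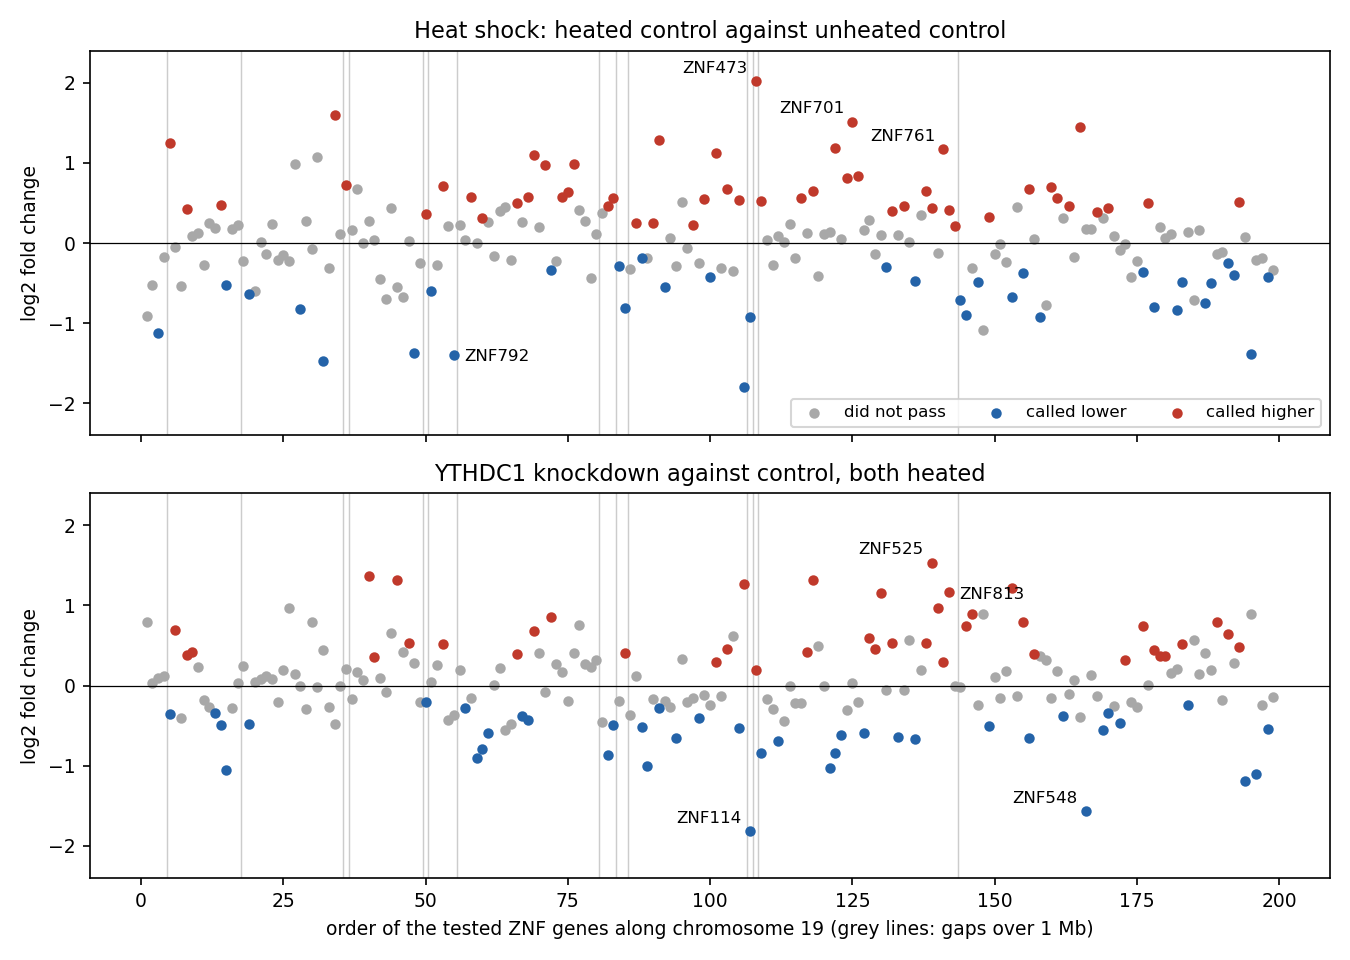
Log2 fold change of each tested chromosome 19 ZNF gene (y axis) in order along the chromosome (x axis, rank), for heat (upper) and YTHDC1 knockdown (lower), with called genes coloured by direction and grey lines at gaps over 1 Mb. In heat the group of 35 tested genes has 14 higher (40.0%) and 2 lower (5.71%). The most distal group, at the right, has 10 higher (17.9%) and 16 lower (28.6%) of 56. These last shares are near the 20.6% and 23.3% of all tested genes.

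The second comparison asked how YTHDC1 knockdown changed these transcripts in heated cells. It set the heated knockdown against the heated control. Rises and falls were nearly equal in number. ZNF525, ZNF430, ZNF616, ZNF582, ZNF813 and ZNF468 rose by more than 2-fold, and ZNF114, ZNF548, ZNF584, ZNF561, ZNF480 and ZNF404 fell by more than 2-fold. Of the 199 tested genes 41 were higher (20.6%) and 40 lower (20.1%), where 27.4% and 27.2% of all tested genes were. Called changes of at least 2-fold numbered 8 upward and 7 downward, against 6.12% and 6.59% of all tested genes. The median log2 change was 0.01, with quartiles of -0.28 and 0.38, beside a median of -0.00 and quartiles of -0.37 and 0.37 over all tested genes. With DESeq2 26 were higher and 24 lower, where 20.1% and 20.2% of all tested genes were. Among genes of at least 5 CPM 34 of 127 were higher (26.8%) and 38 lower (29.9%), where 32.8% and 32.2% of all genes at that level were.

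The remaining genes of chromosome 19 leaned upward in the knockdown, with 336 higher (35.5%) and 199 lower (21.0%) of 947 and a median of 0.11. ZNF genes elsewhere had 66 higher (27.6%) and 55 lower (23.0%) of 239. Over all tested genes the shares were 27.4% and 27.2%. The group between 19668153 and 24129968 held most of the genes at 0. There 4 of 13 tested genes were higher (30.8%), near the share over all tested genes, and 0 lower, with a median of 0.28. The 4 higher genes were ZNF100, ZNF430, ZNF431 and ZNF91. DESeq2 and limma voom each called 2 genes of the group higher. So did edgeR with no filter, with the size factors of DESeq2, with only the groups compared and with the replicate block. The number also fell in most edgeR fits with 1 library left out. ZNF430 (21020657 to 21060050) lies there and measured 2.52 and 1.93 CPM unheated, 2.61 and 2.8 in the heated control and 7.74 and 6.26 in the heated knockdown. Its knockdown libraries lay above the other 4, which overlapped. The change was 1.37 ± 0.22 (SE, edgeR adjusted p = 5.75e-06). Knockdown changes of neighbouring tested ZNF genes had a Spearman's rho of 0.20 over 156 pairs, against 0.11 over 773 pairs of other chromosome 19 genes.

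A run of 5 consecutive ZNF genes on the plus strand, ZNF845, ZNF525, ZNF765, ZNF761 and ZNF813, was higher in the knockdown throughout. The run, between 53333749 and 53496255, was singled out after its values were seen. Its genes are separated by 8799, 8559, 4663 and 9472 bp, and ZNF813 overlaps the pseudogene TPM3P6. The 250 bases before each start site are shown because all 5 contain the same 22 bases, given in capitals. This is the longest stretch that all 5 share exactly. The windows also share shorter exact stretches, such as one nearer the start site, left in lower case. They are RefSeq sequences on GRCh38.p14, written from 5′ to 3′, at chr19:53333499-53333748, chr19:53365455-53365704, chr19:53394899-53395148, chr19:53431734-53431983 and chr19:53467483-53467732 in the order listed.
ZNF845: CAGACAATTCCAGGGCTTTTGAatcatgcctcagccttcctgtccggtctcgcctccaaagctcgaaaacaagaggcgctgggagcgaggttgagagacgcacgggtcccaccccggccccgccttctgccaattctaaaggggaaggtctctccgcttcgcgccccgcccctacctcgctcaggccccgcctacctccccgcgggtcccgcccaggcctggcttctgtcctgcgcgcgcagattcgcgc
ZNF525: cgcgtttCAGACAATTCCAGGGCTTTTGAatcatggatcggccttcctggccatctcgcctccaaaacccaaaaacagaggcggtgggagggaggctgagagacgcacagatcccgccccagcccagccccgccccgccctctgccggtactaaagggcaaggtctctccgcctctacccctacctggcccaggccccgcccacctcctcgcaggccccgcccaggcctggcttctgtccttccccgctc
ZNF765: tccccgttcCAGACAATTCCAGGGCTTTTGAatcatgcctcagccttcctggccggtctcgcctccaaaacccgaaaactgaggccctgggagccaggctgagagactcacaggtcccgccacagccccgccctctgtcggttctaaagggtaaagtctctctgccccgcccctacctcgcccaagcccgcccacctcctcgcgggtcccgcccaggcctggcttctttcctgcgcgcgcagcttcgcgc
ZNF761: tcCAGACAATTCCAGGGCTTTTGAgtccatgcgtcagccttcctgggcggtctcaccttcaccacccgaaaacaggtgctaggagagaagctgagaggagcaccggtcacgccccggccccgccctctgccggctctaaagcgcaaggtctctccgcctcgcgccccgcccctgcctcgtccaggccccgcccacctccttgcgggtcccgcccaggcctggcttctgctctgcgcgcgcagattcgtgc
ZNF813: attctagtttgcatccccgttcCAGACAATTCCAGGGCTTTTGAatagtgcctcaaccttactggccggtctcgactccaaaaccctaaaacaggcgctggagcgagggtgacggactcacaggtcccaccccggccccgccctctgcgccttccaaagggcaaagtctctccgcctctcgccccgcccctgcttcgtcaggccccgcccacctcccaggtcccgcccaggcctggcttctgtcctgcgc

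The shared stretch began 250, 243, 241, 248 and 228 bases before the start sites. Searched on both strands, CAGACAATTCCAGGGCTTTTGA was found in 7 of 35116 RefSeq promoter windows (0.0199%). These were the 5 genes of the run, the readthrough ZNF765-ZNF761 and LOC137778871. Pairs of windows in the run were identical at a median of 75.5% of bases, between 72.3% and 83.8%, against a median of 50.0% over 15753 pairs of windows of 178 tested ZNF genes. The highest identity over all those pairs was 91.6%. A match in letters is a description and says nothing of a bound factor.

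ZNF525 (53365705 to 53386590) had the largest rise of the run in the knockdown. It measured 6.75 and 5.4 CPM unheated, 8 and 8.46 in the heated control and 23.9 and 23.8 in the heated knockdown. The knockdown libraries lay clear of both other groups. The change was 1.53 ± 0.13 (SE, edgeR adjusted p = 1.9e-10). Next by size of change was ZNF813, the last gene of the run. It measured 7.82 and 8.35, then 11.1 and 10.5, then 22.5 and 25.7 CPM, a change of 1.16 ± 0.12 (edgeR adjusted p = 6.55e-09). ZNF765, whose protein binds LINE-1 elements, measured 8.77 and 10, then 8.46 and 8.82, then 15.8 and 18.1 CPM, a change of 0.97 ± 0.13 (edgeR adjusted p = 8.66e-07). ZNF845 measured 10.5 and 9.32, then 14.6 and 16.4, then 22.2 and 22.7 CPM, a change of 0.53 (edgeR adjusted p = 0.000172). In all 4 genes both knockdown libraries were above both heated controls. ZNF761 changed by 0.29 ± 0.08 (edgeR adjusted p = 0.0024), a call lost without heated knockdown replicate 1 (0.15, edgeR adjusted p = 0.0997).

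In heat the genes of the run did not move as one. ZNF761 rose by 1.18 and ZNF845 by 0.65 (edgeR adjusted p = 9.65e-05). ZNF525 changed by 0.44 (edgeR adjusted p = 0.0207), a call lost with DESeq2 (adjusted p = 0.0896), without unheated control replicate 2 (0.247) and without heated control replicate 2 (0.108). ZNF813 changed by 0.41 (edgeR adjusted p = 0.0146), a call lost with DESeq2 (adjusted p = 0.075), without unheated control replicate 1 (0.105) and without heated control replicate 1 (0.0882). ZNF765 differed by -0.12 (edgeR adjusted p = 0.523). ZNF331, the next ZNF gene downstream and an imprinted gene, measured 33.2 and 31.3, then 37.4 and 37.5, then 35.6 and 39.2 CPM, and differed by -0.00 in the knockdown (edgeR adjusted p = 0.998). How reads shared by near-identical family members were counted is not stated, so the split of counts among related genes of the run is uncertain.

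**Figure D4:**
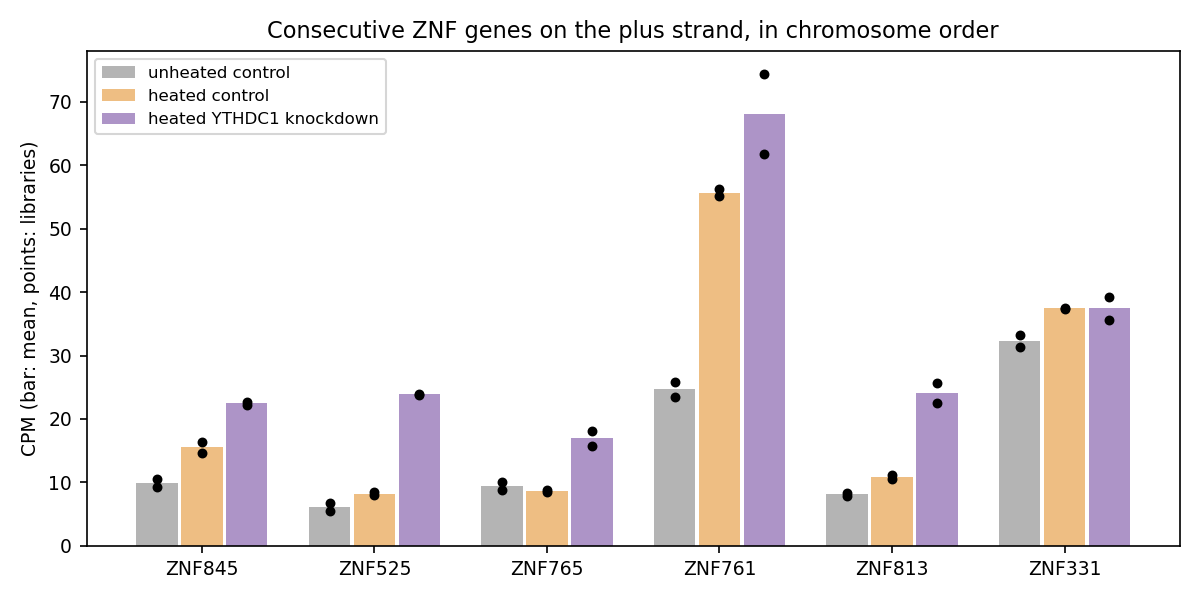
Level (CPM, y axis) of the 5 consecutive genes ZNF845, ZNF525, ZNF765, ZNF761 and ZNF813 and of the flanking ZNF331 in the 6 libraries, with bars for the mean of each group and points for its libraries. ZNF525 lies at 23.9 and 23.8 CPM in the heated knockdown against 8 and 8.46 in the heated control, and ZNF331 overlaps between those groups.

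The promoter windows were also searched for a heat shock element of 3 units, that is GAA, any 2 bases, TTC, any 2 bases and GAA, or the same with TTC and GAA exchanged, on both strands. Some chromosome 19 ZNF genes, ZNF473 and ZNF114 among them, had no promoter window and could not be searched. The element was present in 172 of 35116 windows (0.49%). Of the 219 chromosome 19 ZNF genes with a window, 1 held it (0.457%), ZNF83 (52612377 to 52690496, minus strand). The match, in capitals, begins 243 bases before the start site in the window chr19:52690497-52690746, written 5′ to 3′ along the gene.
ZNF83: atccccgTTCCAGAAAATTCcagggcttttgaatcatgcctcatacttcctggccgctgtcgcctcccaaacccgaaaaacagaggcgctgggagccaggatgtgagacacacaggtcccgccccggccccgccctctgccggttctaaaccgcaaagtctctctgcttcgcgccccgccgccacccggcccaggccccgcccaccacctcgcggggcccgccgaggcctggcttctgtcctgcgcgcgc

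Of the 22 bases shared by the run, ZNF83 holds the 17 bases AATTCCAGGGCTTTTGA, found in 10 of 35116 windows (0.0285%), and they overlap the heat shock element match. ZNF83 measured 9.84 and 9.25 CPM unheated, 16.8 and 17.1 in the heated control and 17 and 12.5 in the heated knockdown. Heated and unheated libraries did not overlap. The heat change was 0.83 (edgeR adjusted p = 1.82e-05), and the knockdown difference was -0.21 (edgeR adjusted p = 0.17), which passed without heated knockdown replicate 1 (0.00611).

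Outside the run, ZNF616 (52113091 to 52139938) rose from 6.08 and 5.73 CPM in the heated control to 13.7 and 15.7 in the knockdown, a change of 1.31 (edgeR adjusted p = 1.28e-07). ZNF468 (52838010 to 52857619) rose from 13.3 and 11.8 to 28.7 and 27 CPM, a change of 1.15 (edgeR adjusted p = 2.18e-09). Both lie in the same position group as the run, where 11 of 35 tested genes were higher (31.4%) and 8 lower (22.9%). These shares are near the 27.4% and 27.2% of all tested genes. ZNF582 changed by 1.21, ZNF524 by 0.90, ZNF875 by 0.86 and ZNF667 by 0.79 in the knockdown, all past the edgeR threshold. ZNF667 overlaps ZNF667-AS1 on the opposite strand, which changed by 0.41 (edgeR adjusted p = 0.00651).

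ZNF114 (48270081 to 48287608, plus strand) had the largest fall in the knockdown and had also fallen with heat. It measured 16.3 and 15.6 CPM unheated, 9.15 and 7.74 in the heated control and 2.25 and 2.5 in the heated knockdown. The 3 groups did not overlap. The change was -0.92 ± 0.13 (SE, edgeR adjusted p = 2.83e-06) in heat and -1.82 ± 0.20 (edgeR adjusted p = 1.16e-08) in the knockdown. Heated knockdown against unheated control differed by -2.74 (edgeR adjusted p = 5.2e-13). ZNF561 followed the same order, with 22.5 and 21.6, then 15.5 and 15.2, then 7.11 and 7.65 CPM, and changes of -0.52 in heat and -1.05 in the knockdown that both passed the edgeR test.

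ZNF548 (57389854 to 57402992) fell in the knockdown without a heat call. It measured 15.3 and 16.1 CPM unheated, 16.5 and 18.7 in the heated control and 6.26 and 5.64 in the heated knockdown. The knockdown libraries lay below all 4 controls. The knockdown change was -1.57 ± 0.14 (SE, edgeR adjusted p = 5.56e-10), and the heat difference was 0.17 (edgeR adjusted p = 0.232). ZNF480 (18.2, 17.2, 21.3, 17.7, 9.57 and 9.53 CPM in library order) changed by -1.03 in the knockdown and ZNF404 was 2.01-fold lower, both past the edgeR threshold, and neither had a heat call. ZNF260, an activator of cardiac genes, measured 26.7 and 32.3, then 31.6 and 27.5, then 14.8 and 16.6 CPM and changed by -0.91 (edgeR adjusted p = 1.51e-07). ZNF584 changed by -1.10, while ZNF584-DT, which overlaps it on the opposite strand, changed by 0.40 (edgeR adjusted p = 0.012).

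For ZNF175 and ZNF780B the knockdown level lay below the unheated level after a rise with heat. ZNF175 measured 12.5 and 14.8, then 19.8 and 19.6, then 10.9 and 11.1 CPM, with changes of 0.53 in heat and -0.84 in the knockdown. ZNF780B measured 19 and 18.5, then 26.7 and 24.9, then 15.1 and 13.3 CPM, with changes of 0.46 and -0.86. Both genes passed the edgeR test in both comparisons. The comparisons share the heated control libraries, so these opposite signs are not independent. The test of heated knockdown against unheated control is not reported here for either gene. ZNF529 changed by -0.79 in the knockdown (edgeR adjusted p = 1.55e-05). Its heat difference of 0.31 (edgeR adjusted p = 0.0418) held in 7 of 13 alternatives. The call was lost with DESeq2 (adjusted p = 0.208), library size alone (0.112) and no filter (0.0649), and without unheated control replicate 1 (0.11), unheated control replicate 2 (0.193) or heated control replicate 2 (0.266).

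**Figure D5:**
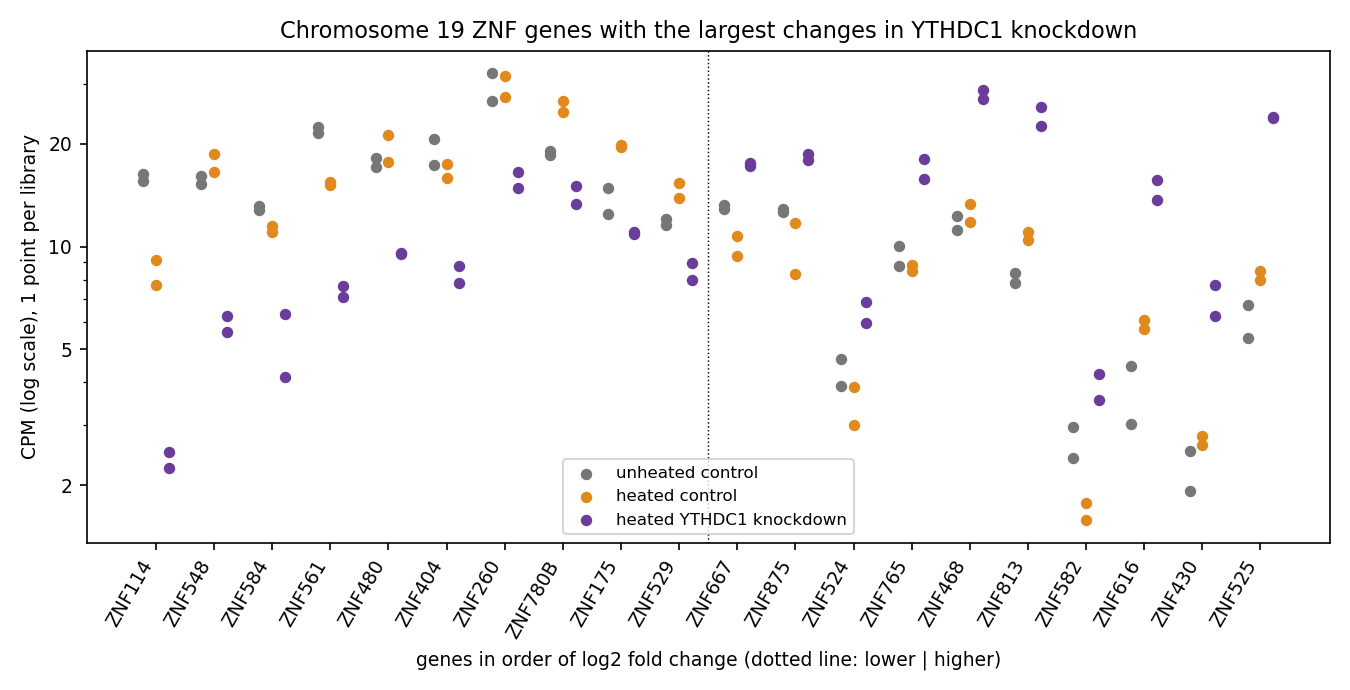
Level of each named chromosome 19 ZNF gene in the knockdown comparison (CPM, log axis), with 1 point for each of the 6 libraries and the groups by colour. ZNF548 lies at 6.26 and 5.64 CPM in the heated knockdown, below its 4 control libraries, and ZNF114 steps down from unheated to heated control to heated knockdown.

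Of 14 genes with a known role 12 were tested. In heat 3 were higher (ZNF808, ZNF224 and ZNF331) and 2 lower (ZNF675 and ZNF274). In the knockdown 3 were higher (ZNF765, ZNF274 and ZNF91) and 1 lower (ZNF587). As shares of the 12 these are 25% and 16.7% in heat, near the 20.6% and 23.3% of all tested genes, and 25% and 8.33% in the knockdown, against 27.4% and 27.2%, so with so few genes nothing is read from the counts. ZNF274, which brings SETDB1 to the ends of ZNF genes themselves, measured 28.1 and 31.9 CPM unheated, 24.6 and 25.8 in the heated control and 39.2 and 39.8 in the heated knockdown. The knockdown libraries were the highest. Its knockdown change was 0.65 ± 0.08 (SE, edgeR adjusted p = 4.95e-07), and its heat change of -0.25 was lost with DESeq2 (adjusted p = 0.159), without unheated control replicate 2 (edgeR adjusted p = 0.26) and without heated control replicate 1 (0.109).

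Calls on retroelement repressors other than ZNF765 and ZNF808 were small or unstable. ZNF91, which represses SVA elements, measured 2.84 and 2.57, then 2.92 and 2.58, then 4.15 and 3.83 CPM, a knockdown change of 0.54 (edgeR adjusted p = 0.049) that held in 1 of 13 alternatives. ZNF587 changed by -0.24 in the knockdown (edgeR adjusted p = 0.0105), lost with DESeq2 (adjusted p = 0.081) and without heated control replicate 2 (edgeR adjusted p = 0.0947). ZNF417 and ZNF649 passed the test in neither comparison, although ZNF649 passed in heat without unheated control replicate 1 (edgeR adjusted p = 0.0445). The heat calls of ZNF224 and ZNF331, both 0.22, each held in 7 of 13 alternatives. ZNF304 and ZNF350, a partner of BRCA1, passed in neither comparison, and ZNF382, at 0.128 to 0.645 CPM, was not tested.

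All 26 genes of a list of the KRAB corepressor pathway were tested. In heat 6 were higher and 10 lower, and in the knockdown 5 were higher and 12 lower. These shares are 23.1% and 38.5% in heat, against 20.6% and 23.3% of all tested genes and 24% and 29.2% of those of at least 5 CPM. In the knockdown they are 19.2% and 46.2%, against 27.4% and 27.2% of all tested genes and 32.8% and 32.2% of those of at least 5 CPM. TRIM28, the corepressor itself, averaged 323 CPM unheated, 252 in the heated control and 282 in the heated knockdown. SETDB1 averaged 51.5, 40 and 39.8 CPM. In heat both changed by -0.36 (edgeR adjusted p = 1.03e-06 for TRIM28 and 0.000202 for SETDB1). TRIM28 changed by 0.16 in the knockdown (edgeR adjusted p = 0.00697), a call lost without heated control replicate 1 (0.1) and without heated knockdown replicate 2 (0.0582). Among the knockdown falls were those of UHRF1, a factor of DNA methylation maintenance (2.24-fold), and the remodeller CHD3 (-0.87 on the log2 scale), and the largest rises were those of MORC2 and TRIM24, both 0.58. The median of the list was -0.00 in heat and -0.12 in the knockdown.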

How the data were processed

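RNA-seq was analysed in 6 libraries of U2OS cells, 2 in each of 3 groups. The authors deposited raw counts, whole numbers of reads for each gene. Per the submitters' processing notes, the tools of the series include featureCounts 2.0.2 and HISAT2 2.2.1, with no role or order recorded. Neither the strand setting nor the handling of multi-mapping reads is stated. Totals of 13252370 to 15500743 counts per library set the precision.

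Symbols were found for 62666 Ensembl identifiers and not for 521. The deposited positions hold a single exon for a gene, so positions are those of RefSeq on GRCh38.p14, matched by symbol. Promoter windows are the 250 bases before the start site in RefSeq's promoter sequences. The search for heat shock elements used the whole of those sequences, which extend past the start site. Subgroups by KRAB domain and by number of fingers were not analysed here.

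The test was edgeR 4.0.16 in R 4.3.3 (quasi-likelihood F test, robust, TMM scaling, filterByExpr with a minimum count of 10), with all 6 libraries in 1 fit, 3 residual degrees of freedom and a biological coefficient of variation of 3.69%. It was tested on simulated data. No library was a copy of another: between replicates the chi-square averaged 1.52, 2.6 and 3.41 for each gene in the 3 groups. Alternatives used DESeq2 1.42.0, limma 3.58.1, other scalings and filters, a replicate block and each library left out.

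The members and lists were chosen with earlier results of these data known. Genes were named as the 10 largest rises and 10 largest falls past the threshold in each comparison among those with a mean of at least 2 CPM, the 5 highest per kilobase, a list with known roles and the corepressor list. The 3 readthrough genes were kept but not named by rank. ZNF296, ZNF100, ZNF431 and the run of consecutive genes were singled out after their values were seen. Results of single genes in the marker and corepressor lists are given for some of their genes, and others are not reported here.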

Additional observations from a re-analysis of the deposited data

How the results depend on the processing

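For the 54 named and tested chromosome 19 ZNF genes, 1404 values in both comparisons, under 13 alternatives each, stayed on the same side of the threshold in 1311 cases, lost a call in 85 and gained one in 8. No call reversed, and 27 values called under neither setting changed sign. DESeq2 gave the lowest counts of calls, with 16 genes lower in heat and 26 higher and 24 lower in the knockdown. Its shares over all tested genes were 15.3% higher and 14.5% lower in heat. The median heat change was -0.0027 with library size alone, 0.10 with only the groups compared and 0.14 among genes of at least 5 CPM. Medians over all tested genes with the first 2 of these settings are not reported here. The median knockdown change was -0.0143 with no filter and -0.11 among genes of at least 5 CPM. Genes lower in heat numbered 22 at that level. With 1 library left out, 40 to 54 genes were higher and 21 to 37 lower in heat, with a median of 0.018 to 0.0891. In the knockdown 32 to 38 were higher and 27 to 41 lower, with a median of -0.0378 to 0.00894. A group left with 1 library is assumed to vary like the others. Of 364 counts for position groups and the corepressor list, 49 moved by over 1.5 times, 15 of them with DESeq2. Depth limits what could be called among genes at low levels.

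No pairing by replicate number was seen: deviations of same-numbered libraries correlated at -0.03, -0.06 and 0.06 over genes of at least 5 CPM. Such correlations cannot show whether same-numbered libraries were prepared together, which the labels do not state. With the replicate number as a block, 51 genes were higher and 33 lower in heat, with a median of 0.07. In the knockdown 38 were higher and 40 lower, with a median of 0.01.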
